A study of Mus musculus with 32 samples.

Results

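BAL17 is a B cell lymphoma line of BALB/c mice that grows as a lymphoma when its cells are put into the brain. Brains taken 28 days after implantation of BAL17 cells were compared with brains taken 21 days after it, a later against an earlier time of the same lymphoma. The comparison takes the 10 arrays whose titles name BAL17 brains at these days, 5 for each day, of 32 arrays in the series, and all 19938 genes with a probe set that carries 1 symbol. The mice were wild-type BALB/c mice, and each brain of both days had received 500000 BAL17 cells. Used beside them as landmarks were 5 brains implanted with BAL17VII, a line derived from BAL17, at day 21, 6 arrays of cultured BAL17 cells, and 5 brains of mice that had been injected with PBS, taken at day 28. The series holds PBS brains of day 28 only, so neither day 21 group has a control of its own day. The labels call the brain samples whole brain, while the extraction entry of every sample, cultured cells included, names frozen tissue sections and trizol. They give neither the plane of a section nor the sex or age of a mouse, and they do not state that each array is a separate mouse, so p-values measure the spread between these arrays.

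A whole brain holds regions with their own transcripts. The striatum is built mainly of inhibitory projection neurons that carry dopamine receptors and signal through cyclic AMP, while the cortex is led by excitatory neurons that use glutamate, and the cerebellum by granule and Purkinje cells. The choroid plexus lies in the ventricles and secretes cerebrospinal fluid. A B cell lymphoma in the brain adds transcripts of B cells and of cell division and draws in immune cells. In such bulk samples, fewer cells of a type and less RNA per cell cannot be told apart.

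All values below are log2 of the deposited array intensity, and a difference is the day 28 mean minus the day 21 mean, with the standard error (SE) of limma, a linear model with a moderated spread. A gene was called higher or lower at a Benjamini-Hochberg adjusted p under 0.05 over all 19938 genes, two-sided. The median intensity of the 10 arrays lay between 85.5 and 93.0, and arrays correlated at 0.989 to 0.994 within day 28, at 0.9845 to 0.9932 within day 21 and at 0.9832 to 0.9912 between the days. Snap25, a neuronal vesicle fusion gene, averaged 13.04 ± 0.04 in day 28 brains and 12.96 ± 0.04 in day 21 brains (SD, n = 5 each), against 5.62 in cultured BAL17 cells, so the samples are brain by this marker. The B cell receptor gene Cd79b was at 8.85 to 9.29 at day 28 and 8.66 to 9.23 at day 21, against a mean of 6.04 in PBS brains, so all 10 brains carried B cell transcripts. Prl, the pituitary prolactin gene, was at 4.79 to 5.26 at day 28 and 5.07 to 5.63 at day 21, below its mean of 8.07 in PBS brains and 11.39 in BAL17VII brains.

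Among the marker lists, those of brain regions held most of the genes called between the days, while 247 of the 311 called genes were in no list. At day 28, genes of the striatum fell most, with smaller numbers of genes of the choroid plexus, the midbrain monoamine neurons and the thalamus, while some genes of cortical excitatory neurons and of the cerebellum rose. Genes of the B lineage, mitosis and replication lists were not called in either direction. The test called 311 of 19938 genes (1.56%), 175 of them higher (0.878%) and 136 lower (0.682%), and 2334 genes had an unadjusted p under 0.05. The median difference over all genes was -0.01, the median called rise was 0.46 and the median called fall was -0.56, so most called changes were under 1 on the log2 scale. Only 4 called genes rose by at least 1 and 12 fell by at least 1. Complete separation of the 5 values of each day was seen for 732 genes (3.67%), with 443 higher (2.22%) and 289 lower (1.45%) at day 28. Of all genes, 52.2% had a difference below 0. These shares over all genes are the background against which each list count below is to be read. The count of 311 became 146, 142, 177 and 164 without day 28 replicates 1, 3, 4 and 5, and 156, 482, 189 and 151 without day 21 replicates 1, 2, 4 and 5. It was 122 when all 20 brain arrays shared 1 fit, 113 of them among the 311.

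The plot of the 15 rising and 15 falling genes with the largest change shows the pattern by brain. Day 28 replicate 2 lay nearer to the day 21 brains than the other day 28 brains did for many of the falling genes, among them Tac1, Rgs9 and Drd2.

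**Figure D1:**
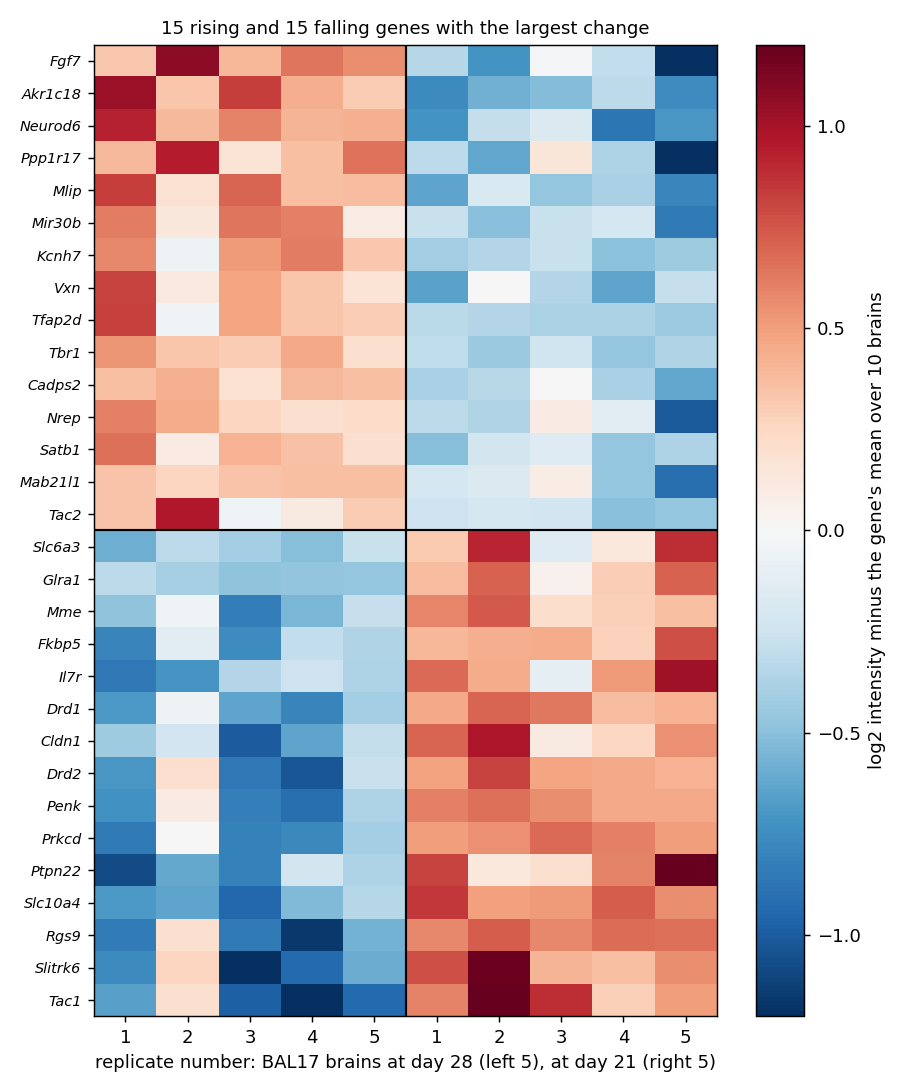
Log2 intensity minus the gene's mean over the 10 brains (colour) for the 15 rising genes (top) and 15 falling genes (bottom) with the largest change among called genes with complete separation of the days, in the 5 day 28 brains (left) and the 5 day 21 brains (right). Differences run from 1.20 for Fgf7 to -1.46 for Tac1, and day 28 replicate 2 is the palest day 28 column for Tac1, Rgs9 and Drd2.

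Striatal genes fell together. Of 14 measured genes of the striatum list, 13 were called lower (0.682% of all genes) and 0 higher. The median difference was -0.73 against -0.01 over all genes. The values of all 14 were lower at day 28 without overlap (1.45% of all genes). Tac1, which encodes the precursor of substance P and is made by the striatal neurons of the direct pathway, had 7.52, 8.37, 7.20, 6.90 and 7.24 in day 28 brains, against 8.77, 9.56, 9.05, 8.45 and 8.68 in day 21 brains. Every day 28 brain lay below every day 21 brain, and replicate 2 of each day was the highest of its day. The difference was -1.46 ± 0.24 (adjusted p = 0.00728), a fold of 0.36.

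Penk, the enkephalin precursor of indirect pathway neurons, had 10.57, 11.40, 10.48, 10.40 and 10.93 in day 28 brains and 11.90, 11.96, 11.85, 11.76 and 11.75 in day 21 brains, a difference of -1.09 ± 0.15 (adjusted p = 0.00297). Its day 21 values spanned about 0.2 while the day 28 values spanned about 1. Drd2, the dopamine receptor of the same neurons, had 7.67, 8.57, 7.50, 7.34 and 8.09 at day 28, against 8.85, 9.18, 8.84, 8.82 and 8.78 at day 21 (-1.06 ± 0.18, adjusted p = 0.00919). Drd1, the receptor of direct pathway neurons, had 7.00, 7.63, 7.06, 6.90 and 7.28 at day 28, against 8.14, 8.39, 8.32, 8.06 and 8.10 at day 21 (-1.03 ± 0.12, adjusted p = 0.0016). Genes of both striatal pathways thus stood lower in all 5 day 28 brains, with replicate 2 the highest of them in each gene.

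Signalling genes downstream of the dopamine receptors fell as well. Rgs9, a regulator of G protein signalling in these neurons, had 7.04, 8.07, 7.03, 6.72 and 7.31 at day 28, against 8.46, 8.60, 8.45, 8.55 and 8.54 at day 21 (-1.29 ± 0.18, adjusted p = 0.00297). Pde10a, a phosphodiesterase that degrades cyclic nucleotides, was at 8.65 to 9.31 at day 28 and 9.66 to 9.83 at day 21 (-0.82 ± 0.11, adjusted p = 0.00297). The remaining list members are named here after their values were seen. Ppp1r1b, the protein phosphatase inhibitor known as DARPP-32, had a difference of -0.75 ± 0.16, the transcription factor gene Isl1 -0.71 ± 0.12, the phosphodiesterase gene Pde1b -0.61 ± 0.09, the retinoic acid receptor gene Rarb -0.60 ± 0.10, the orphan receptor gene Gpr6 -0.58 ± 0.11, the sodium channel subunit gene Scn4b -0.49 ± 0.09 and the adenylyl cyclase gene Adcy5 -0.48 ± 0.09. Each of these 7 was called, with adjusted p between 0.00507 and 0.0275. Syndig1l averaged 6.81 in day 28 brains and 7.04 in day 21 brains and was not called (-0.23 ± 0.08, adjusted p = 0.194).

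**Figure D2:**
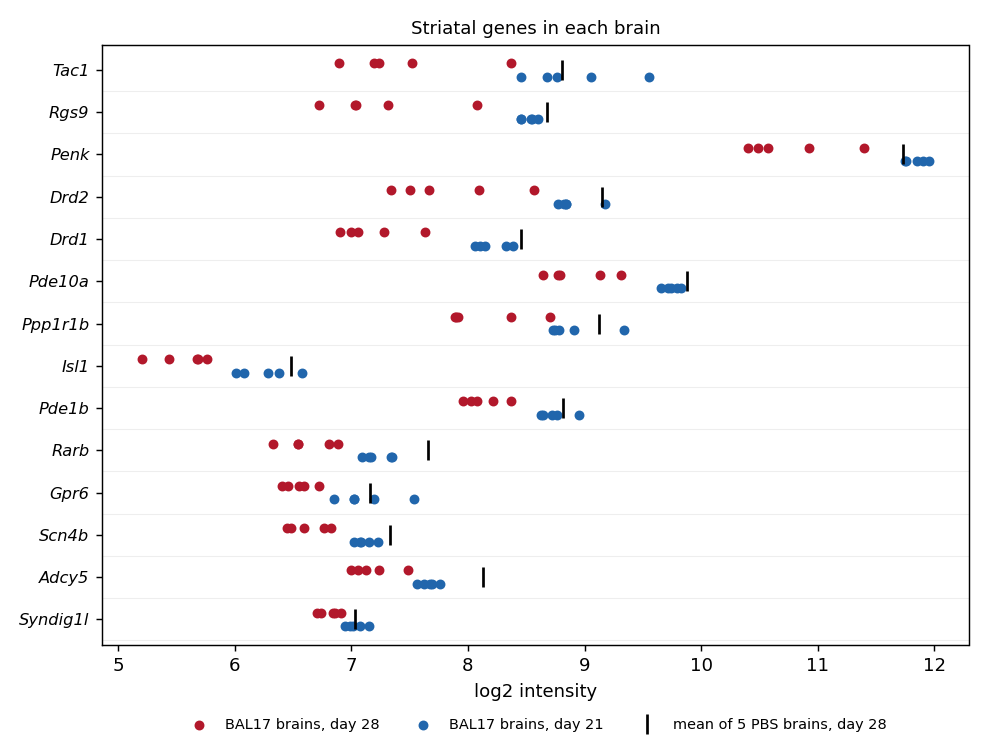
Log2 intensity (x axis) of the 14 measured striatal genes (rows) in each of 5 day 28 brains (red) and 5 day 21 brains (blue), with the mean of 5 PBS brains as a bar. In all 14 genes the red points lie left of the blue points, by -1.46 for Tac1 and -0.23 for Syndig1l, and in Tac1, Rgs9, Penk and Drd2 the highest day 28 value is replicate 2.

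The mean of the striatum list was 7.37, 7.92, 7.36, 7.24 and 7.60 in day 28 brains, 8.29, 8.49, 8.26, 8.22 and 8.23 in day 21 brains, and 8.74, 8.96, 8.45, 7.68 and 8.48 in PBS brains. The days did not overlap, but PBS replicate 4 lay among the day 28 brains, and the PBS brains alone spanned more than the day 28 brains. BAL17VII brains at day 21 lay between 7.90 and 8.79. The median difference of the 14 genes from PBS brains was -0.96 at day 28 and -0.19 at day 21, 2 comparisons that share the PBS brains. With the PBS brains in the fit, 7 of the 14 genes were called lower between the days, with all 20 brain arrays 5, and with the 10 arrays and only genes above percentile 75 of intensity 8.

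Promoters of striatal genes were searched because these genes moved together and because the dopamine receptors act through cyclic AMP. The 3 printed below are those of the 11 matched genes that hold the core TGACG, so they do not show the list as a whole. The cAMP response element, TGACGTCA, is the site at which the factor CREB binds DNA. The window lies mostly before the start of the gene, from RefSeq on GRCm38.p6, printed 5′ to 3′ on the strand of the gene. Capitals mark the core TGACG on either strand, which the whole element holds on both strands where they overlap. Tac1 lies on the plus strand at chr6:7554811-7555110, Gpr6 on the minus strand at chr10:41072241-41072540 and Isl1 on the minus strand at chr13:116309639-116309938.
Tac1: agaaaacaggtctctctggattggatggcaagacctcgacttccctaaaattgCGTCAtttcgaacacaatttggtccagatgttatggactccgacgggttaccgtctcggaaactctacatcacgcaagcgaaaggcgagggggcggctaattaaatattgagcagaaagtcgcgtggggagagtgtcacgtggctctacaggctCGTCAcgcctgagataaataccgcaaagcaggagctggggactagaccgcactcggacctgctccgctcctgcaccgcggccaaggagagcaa
Gpr6: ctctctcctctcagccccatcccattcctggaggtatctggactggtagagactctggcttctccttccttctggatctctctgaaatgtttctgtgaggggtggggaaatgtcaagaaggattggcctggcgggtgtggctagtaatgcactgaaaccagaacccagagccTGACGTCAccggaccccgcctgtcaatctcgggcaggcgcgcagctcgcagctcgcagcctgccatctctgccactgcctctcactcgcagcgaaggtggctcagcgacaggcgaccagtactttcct
Isl1: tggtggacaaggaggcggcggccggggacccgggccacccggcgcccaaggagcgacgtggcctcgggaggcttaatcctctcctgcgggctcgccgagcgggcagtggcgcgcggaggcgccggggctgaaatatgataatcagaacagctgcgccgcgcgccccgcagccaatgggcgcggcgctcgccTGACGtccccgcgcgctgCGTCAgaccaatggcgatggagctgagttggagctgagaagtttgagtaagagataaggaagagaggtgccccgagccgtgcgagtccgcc
The core was found in 3 of the 15 promoters that matched 11 of the 14 genes, against 20.8% of 32851 promoters of all genes and 3 of 18 promoters of cortex genes (16.7%). The whole element was found in 1 of the 15 (6.67%), that of Gpr6 at -78 from the start, against 1.79% of all. In Tac1 the core lay at -197 and -43, and in Isl1 at -59 and -41. The share of striatal promoters with the core was close to that of all promoters, and a match is a string of letters and no measured site.

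Other falling genes in the set with the largest change are named by that rule alone. Slc10a4, a vesicular transporter gene of cholinergic and monoaminergic neurons, had 5.32, 5.38, 5.07, 5.48 and 5.66 at day 28, against 6.86, 6.50, 6.52, 6.73 and 6.56 at day 21, and a mean of 5.96 in PBS brains. Its difference of -1.25 ± 0.11 had the smallest adjusted p of the named genes (0.000124), with day 28 below and day 21 above the PBS mean. Mme, the peptidase neprilysin that cuts enkephalins, was at 6.80 to 7.58 at day 28 and 7.84 to 8.37 at day 21 (-0.87 ± 0.13, adjusted p = 0.00525). The glycine receptor gene Glra1 was at 5.27 to 5.44 at day 28 and 5.81 to 6.46 at day 21 (-0.85 ± 0.11), and Slitrk6, a synaptic adhesion protein gene, at 3.78 to 5.27 and 5.37 to 6.20 (-1.31 ± 0.22). Both lay below the median of the array in all 10 brains.

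Markers of monoamine neurons of the midbrain were lower too. Of 9 measured genes, 5 were called lower (0.682% of all genes) and 0 higher, with a median of -0.50. Ddc, the decarboxylase that makes dopamine and serotonin, had 6.24, 6.77, 5.89, 5.80 and 6.40 at day 28, against 7.06, 7.41, 7.18, 6.70 and 7.19 at day 21 (-0.89 ± 0.17, adjusted p = 0.0151). Its ranges overlapped, since day 28 replicate 2 lay above day 21 replicate 4. Slc18a2, the vesicular monoamine transporter gene, was at 5.70 to 6.02 at day 28 and 6.20 to 6.93 at day 21 (-0.67 ± 0.11, adjusted p = 0.00954), and the serotonin transporter gene Slc6a4 at 5.06 to 5.52 and 5.58 to 5.99 (-0.53 ± 0.10, adjusted p = 0.0183). The dopamine transporter gene Slc6a3 was at 6.12 to 6.43 at day 28 and 6.54 to 7.61 at day 21 (-0.84 ± 0.17, adjusted p = 0.0246). Cultured BAL17 cells had a mean Slc6a3 of 9.13, so its level in these brains can come from neurons or lymphoma cells, and the source was not tested. The same holds for Slc18a2, with a mean of 7.01 in cultured BAL17 cells. Tph2, the neuronal enzyme of serotonin synthesis and named after its value was seen, differed by -0.50 ± 0.11 (adjusted p = 0.0383), while Th, the enzyme of dopamine synthesis, likewise named after its value was seen, did not pass the test (-0.40 ± 0.10, adjusted p = 0.0618).

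By their mean over the 10 brains, all 9 genes of that list lay below the median of the arrays, although Ddc and Slc6a3 lay above it in most day 21 brains. The list mean was 5.66 to 5.86 at day 28, 6.12 to 6.27 at day 21 and 5.62 to 6.49 in PBS brains, so the PBS brains spanned both days. The count of 5 became 3 without day 28 replicate 1 or 4 or day 21 replicate 1, 2 without day 28 replicate 3, 2 with PBS brains in the fit and 0 with all 20 brain arrays. The Slc6a3 call was lost without any of 5 arrays (adjusted p up to 0.0688) and that of Slc6a4 without day 28 replicate 3 (adjusted p = 0.0585).

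Of 12 thalamus genes, 4 were called lower (0.682% of all genes) and 0 higher, with a median of -0.23. Prkcd, a protein kinase C gene enriched in thalamic relay nuclei, had 8.13, 8.97, 8.17, 8.20 and 8.57 at day 28, against 9.48, 9.53, 9.66, 9.59 and 9.48 at day 21 (-1.14 ± 0.14, adjusted p = 0.0016). The day 21 brains were tightly grouped and above the PBS mean of 9.15, and all day 28 brains were below it. Cultured BAL17 cells had a mean Prkcd of 9.73, so its level in these brains can come from neurons or lymphoma cells. The source was not tested. Synpo2 differed by -0.70 ± 0.13 (adjusted p = 0.013), and Plekhg1, named after its value was seen, by -0.62 ± 0.13 (adjusted p = 0.025). Ntng1, an axon guidance protein gene, differed by -0.73 ± 0.10 (adjusted p = 0.00297), but another probe set of this gene had a difference of -0.16 ± 0.10 and no call (adjusted p = 0.608), so its probe sets disagree. The thalamic transcription factor genes had differences near 0, with Tcf7l2 at 0.12 ± 0.11 and Lef1 at 0.01 ± 0.10, neither called and both named after their values were seen. The count of 4 became 2 with the PBS brains in the fit, 2 with all 20 brain arrays and 2 above percentile 75 of intensity.

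Among 12 hypothalamus genes, 2 neuropeptide genes were called lower and 0 genes higher, with a median of -0.06. Cartpt was at 6.81 to 7.02 in day 28 brains and 7.26 to 7.73 in day 21 brains (-0.59 ± 0.09, adjusted p = 0.00507). Gal, the galanin gene, was at 4.70 to 5.20 and 5.26 to 5.90 (-0.62 ± 0.12, adjusted p = 0.0219), and its call was lost without any of 4 arrays (adjusted p up to 0.0637). With the PBS brains or all brain arrays in the fit, 0 of the 12 were called. Oxt, the oxytocin gene, was at 7.39 to 7.68 at day 28 and 7.63 to 7.80 at day 21 and was not called (adjusted p = 0.597).

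Choroid plexus genes were lower in day 28 brains. Of 13 measured genes of choroid plexus and ependyma, 6 were called lower (0.682% of all genes) and 0 higher. All 13 differences were below 0, and their median was -0.55. Otx2, a transcription factor gene of the choroid plexus, had 6.27, 6.52, 6.17, 5.74 and 6.07 at day 28, against 6.70, 6.82, 6.59, 6.99 and 7.16 at day 21 (-0.70 ± 0.14, adjusted p = 0.0184). The potassium channel gene Kcnj13 was at 8.40 to 8.96 at day 28 and 9.01 to 9.63 at day 21 (-0.64 ± 0.12, adjusted p = 0.0178), and the bicarbonate transporter gene Slc4a5 at 5.91 to 6.28 and 6.47 to 6.77 (-0.47 ± 0.09, adjusted p = 0.0181). Cultured BAL17 cells had a mean Kcnj13 of 9.55, so its level in these brains can come from choroid plexus or lymphoma cells. The source was not tested. Clic6 (-1.10 ± 0.21), Folr1 (-0.61 ± 0.14) and Kl (-0.59 ± 0.13), named after their values were seen, were the other called genes, and their ranges overlapped between the days. The calls of Otx2, Kcnj13 and Slc4a5 were each lost without either of 2 arrays, with adjusted p of up to 0.0558, 0.0547 and 0.0542.

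Ttr, the transthyretin gene and the leading product of the choroid plexus, had 12.04, 12.73, 11.73, 9.66 and 12.17 at day 28, against 12.88, 12.96, 12.74, 12.85 and 13.04 at day 21. All day 28 brains were lower, replicate 4 by far the most, and the difference of -1.23 ± 0.39 did not pass the test (adjusted p = 0.163). Without replicate 4 it did (adjusted p = 0.0412). The ependymal cilium genes Foxj1 (-0.04 ± 0.09), Ccdc153 (-0.24 ± 0.10) and Tmem212 (-0.21 ± 0.10), named after their values were seen, were not called.

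The choroid list mean was 6.42 to 7.05 at day 28, 7.00 to 7.37 at day 21 and 6.89 to 7.60 in PBS brains, so the days overlapped in the mean through day 28 replicate 2 and day 21 replicate 3. The count of 6 became 1 without day 28 replicate 3 or day 21 replicate 5, 3 without day 28 replicate 1 or 5, 3 with the PBS or all brain arrays in the fit, and 1 with either filter on intensity. By their mean over the 10 brains, 10 of the 13 genes lay below the median of the arrays.

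**Figure D3:**
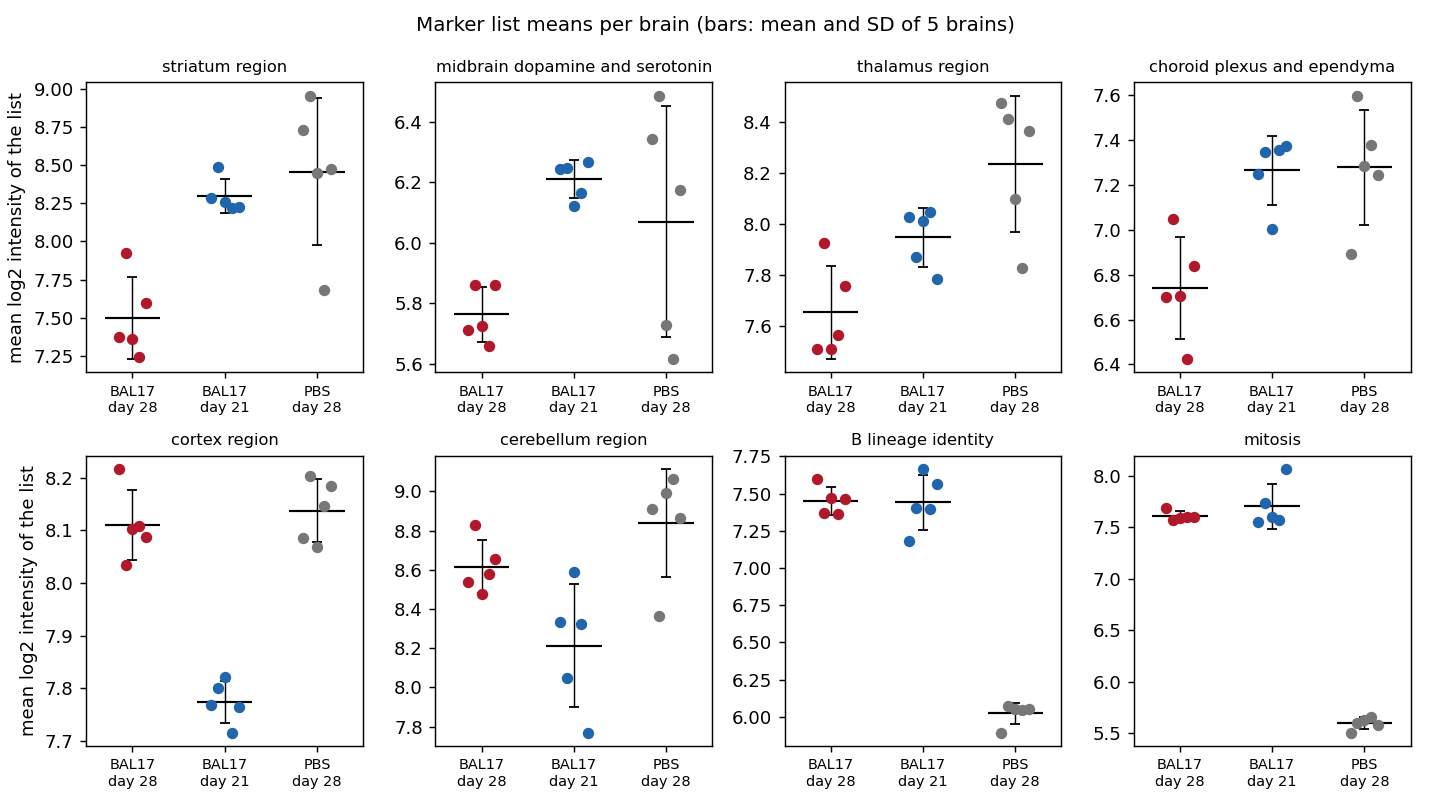
Mean log2 intensity (y axes, each with its own range) of 8 marker lists in each of 5 day 28 brains (red), 5 day 21 brains (blue) and 5 PBS brains at day 28 (grey), with the mean and SD of each group. Striatum means are 7.24 to 7.92 at day 28, 8.22 to 8.49 at day 21 and 7.68 to 8.96 in PBS brains, while B lineage means are 7.36 to 7.60 at day 28 and 7.18 to 7.66 at day 21.

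Cortical genes were higher at day 28 and stood there at the level of PBS brains. Of 14 measured cortex genes, 5 were called higher (0.878% of all genes) and 0 lower. All 14 differences were above 0, and their median was 0.31. Neurod6, a transcription factor gene of cortical and hippocampal excitatory neurons, had 8.73, 8.20, 8.41, 8.21 and 8.24 in day 28 brains, against 7.09, 7.52, 7.63, 6.94 and 7.11 in day 21 brains, and a mean of 8.37 in PBS brains. No day 21 brain reached a day 28 brain, and the difference was 1.10 ± 0.14 (adjusted p = 0.00215), a fold of 2.14. Tbr1, a T-box factor gene of deep-layer neurons, had 9.37, 9.17, 9.14, 9.29 and 9.02 at day 28, against 8.53, 8.39, 8.60, 8.37 and 8.47 at day 21 (0.72 ± 0.08, adjusted p = 0.0016). Rasgrf2, a Ras exchange factor gene of upper-layer neurons, was at 7.75 to 8.11 and 7.31 to 7.56 (0.47 ± 0.09, adjusted p = 0.013). The others called were Mef2c (0.51 ± 0.09), which cultured BAL17 cells also held at a mean of 10.43, and Stx1a (0.43 ± 0.10), both named after their values were seen.

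The cortex list mean was 8.04 to 8.22 at day 28, 7.72 to 7.82 at day 21 and 8.07 to 8.20 in PBS brains. Day 28 brains thus lay within or close to the PBS range and above every day 21 brain. The median difference of the cortex genes from the PBS brains, shared by both comparisons, was -0.04 at day 28 and -0.37 at day 21. The count of 5 between the days stayed between 4 and 6 when single arrays were left out and became 3 above percentile 75 of intensity.

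Cerebellar genes were also higher at day 28, with few calls and a wider spread. Of 17 measured genes, 3 were called higher (0.878% of all genes) and 0 lower. All 17 differences were above 0, and their median was 0.33. Ppp1r17, a phosphatase inhibitor gene of Purkinje cells, had 8.33, 8.89, 8.11, 8.31 and 8.59 at day 28, against 7.63, 7.32, 8.09, 7.58 and 6.59 at day 21 (1.01 ± 0.21, adjusted p = 0.0275). Day 21 replicate 3 came within 0.1 of the lowest day 28 brain, and day 21 replicate 5 was the lowest of all. Cbln3, a synaptic organiser gene of granule cells, was at 9.15 to 9.67 at day 28 and 8.24 to 9.26 at day 21 (0.67 ± 0.15, adjusted p = 0.0342), and the Purkinje cell gene Car8 at 11.03 to 11.27 and 9.84 to 10.87 (0.64 ± 0.15, adjusted p = 0.0459). The granule cell receptor gene Gabra6 was at 10.16 to 10.54 at day 28 and 8.90 to 10.36 at day 21 and was not called (0.68 ± 0.19, adjusted p = 0.107), but it was called without day 21 replicate 3 (adjusted p = 0.012).

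The cerebellar calls depended on which brains were in the fit. Their number was 0 without day 28 replicate 1, 2, 4 or 5, 0 without day 21 replicate 1 or 4, 1 without day 21 replicate 5 and 7 without day 21 replicate 3. Cbln3 lost its call without any of 7 arrays (adjusted p up to 0.082) and Car8 without any of 9 (adjusted p up to 0.109). The list mean was 8.48 to 8.83 at day 28, 7.77 to 8.59 at day 21, 8.37 to 9.06 in PBS brains and 7.56 to 8.98 in BAL17VII brains. The median difference from the same PBS brains was -0.22 at day 28 and -0.63 at day 21.

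Among the region lists the direction thus differed within the same brains, with 26 called genes of region lists lower and 9 higher at day 28. The regions that each section held are not given in the labels, so the region sampled and the day cannot be told apart.

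The 15 rising genes with the largest change included genes outside the region lists. Fgf7, a fibroblast growth factor gene, had 8.36, 9.11, 8.44, 8.68 and 8.59 in day 28 brains, against 7.70, 7.32, 8.02, 7.74 and 6.41 in day 21 brains, and a PBS mean of 8.86 (1.20 ± 0.23, adjusted p = 0.0184). Akr1c18, a dehydrogenase gene that inactivates progesterone, had 6.99, 6.29, 6.79, 6.40 and 6.26 at day 28, against 5.20, 5.39, 5.44, 5.65 and 5.20 at day 21 (1.17 ± 0.14, adjusted p = 0.0016). Both separated the days completely, Fgf7 with day 21 replicate 5 far below the rest.

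Mlip was at 8.93 to 9.58 at day 28 and 7.97 to 8.57 at day 21 (0.98 ± 0.13), and the potassium channel gene Kcnh7 at 8.55 to 9.22 and 8.11 to 8.33 (0.79 ± 0.11). Satb1, a chromatin organiser gene with a mean of 9.67 in cultured BAL17 cells, rose by 0.69 ± 0.11, and Vxn by 0.76 ± 0.14. Tfap2d, a transcription factor gene, had a difference of 0.75 ± 0.12 at levels of 5.56 to 6.42 at day 28 and 5.17 to 5.28 at day 21. The precursor of the microRNA miR-30b, Mir30b, was at 6.40 to 6.95 at day 28 and 5.46 to 6.10 at day 21 (0.84 ± 0.14, adjusted p = 0.00895), and the array does not say which mature form this reflects. The secretion factor gene Cadps2 (0.69 ± 0.10), Nrep (0.69 ± 0.16), Mab21l1 (0.67 ± 0.14) and the tachykinin gene Tac2 (0.66 ± 0.15) completed the set. Calls were lost without any of 8 arrays for Nrep, 6 for Tac2, 6 for Ppp1r17 and 5 for Mab21l1, with adjusted p of up to 0.113, 0.0998, 0.072 and 0.0682.

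Most genes common to neurons had a difference above 0, and few passed the test. Of 19 general neuron genes, 2 were called higher and 0 lower, 16 had a difference above 0, 8 were higher without overlap (2.22% of all genes), and the median was 0.17. Camk2a, a kinase of excitatory synapses, had 11.58, 11.46, 11.57, 11.48 and 11.51 at day 28, against 11.12, 11.16, 11.20, 11.07 and 11.13 at day 21 (0.38 ± 0.07, adjusted p = 0.013). The days were separate, by more than the whole range within either day. The synapsin gene Syn1 differed by 0.39 ± 0.09 (adjusted p = 0.0324), while Snap25 differed by 0.08 ± 0.07 (adjusted p = 0.71). Rbfox3, the gene of the neuronal nuclear antigen NeuN, was at 10.27 to 10.36 and 9.89 to 10.11 and did not pass the test (0.28 ± 0.07, adjusted p = 0.0851).

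Of 14 glutamate receptor genes, 2 were called higher and 0 lower, 12 had a difference above 0, and the median was 0.18. Grin2a, an NMDA receptor subunit gene, was at 9.52 to 9.85 at day 28 and 8.84 to 9.29 at day 21 (0.56 ± 0.09, adjusted p = 0.00895), and the AMPA receptor subunit gene Gria4 at 9.89 to 10.04 and 9.29 to 9.79 (0.43 ± 0.09, adjusted p = 0.0292). Immediate early genes, which neurons switch on with activity, gave 2 calls higher (0.878% of all genes) and 0 lower of 12. Of the 12, 7 had a difference above 0 and 5 below 0, with a median of 0.13. Arc, an activity-dependent synaptic protein gene, had 8.06, 7.95, 8.02, 8.17 and 8.17 at day 28, against 7.40, 7.63, 7.46, 7.36 and 7.43 at day 21, and a PBS mean of 8.38 (0.62 ± 0.08, adjusted p = 0.00246). All day 28 brains lay above all day 21 brains. Egr1 differed by 0.42 ± 0.09 (adjusted p = 0.0302) and Egr2 by 0.44 ± 0.11 without a call (adjusted p = 0.0571). The calls of Syn1, Gria4 and Egr1 were each lost without any of 7 arrays, with adjusted p of up to 0.0923, 0.0838 and 0.0947, and that of Egr2 appeared without day 28 replicate 5 or day 21 replicate 2 (adjusted p = 0.0274 and 0.0491).

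Glial lists held 1 call each or none, against 0.878% of all genes called higher and 0.682% lower. Of 14 astrocyte genes, 12 had a difference above 0 (median 0.14) and 1 was called higher and 0 lower, the glutamate transporter gene Slc1a3 at 10.16 to 10.33 in day 28 brains and 9.77 to 10.03 in day 21 brains (0.33 ± 0.08, adjusted p = 0.0477). Its call was lost without any of 8 arrays (adjusted p up to 0.141). Gfap, the intermediate filament gene of astrocytes, was at 7.44 to 7.93 and 7.03 to 8.16 and was not called (-0.01 ± 0.16). Of 17 reactive astrocyte genes, 13 had a difference below 0 (median -0.13) and 1 was called lower and 0 higher, Cp, named after its value was seen (-0.54 ± 0.12, adjusted p = 0.0387). Of 16 myelin genes 0 were called by limma in either direction (median 0.02), 3 of them at an unadjusted p under 0.05, with Mbp at 0.02 ± 0.10 and Mag at -0.12 ± 0.13. Of 14 microglia genes, 11 had a difference above 0 (median 0.20) and 1 was called higher and 0 lower, the fractalkine receptor gene Cx3cr1 at 7.84 to 8.14 and 7.47 to 7.82 (0.39 ± 0.09, adjusted p = 0.0417), a call lost without any of 8 arrays (adjusted p up to 0.129). P2ry12, a purine receptor gene of resting microglia, was at 7.16 to 7.73 at day 28 and 6.58 to 7.47 at day 21 (0.44 ± 0.16, adjusted p = 0.233) and was called without day 21 replicate 2 (adjusted p = 0.0431).

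Identity genes in the B lineage list were not called between the days. Of 19 B lineage genes, 0 were called higher and 0 lower by limma, 3 had an unadjusted p under 0.05, and the median was -0.02. The list mean was 7.60, 7.37, 7.47, 7.36 and 7.46 in day 28 brains and 7.18, 7.40, 7.66, 7.39 and 7.57 in day 21 brains, against 5.89 to 6.07 in PBS brains. The days overlapped almost wholly, and the day 21 brains spread wider. Cd79b differed by 0.13 ± 0.11 (adjusted p = 0.736). Ms4a1, the CD20 gene, ran from 7.48 to 8.74 at day 28 and from 6.05 to 8.81 at day 21 (0.72 ± 0.37, adjusted p = 0.494), while cultured BAL17 cells had a mean of 5.31.

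Genes of the mitosis and replication lists were not called either. Of 21 mitosis genes limma called 0, and 0 had an unadjusted p under 0.05, while 17 had a difference below 0 (median -0.12). Of 23 replication genes limma called 0, and 5 had an unadjusted p under 0.05. Of the 23, 22 had a difference below 0 (median -0.13) and 2 were lower without overlap (1.45% of all genes). Mki67, the gene of the Ki-67 antigen, averaged 8.82 in day 28 brains and 8.98 in day 21 brains (-0.16 ± 0.12, adjusted p = 0.68). Top2a, a topoisomerase gene of dividing cells, was at 9.47 to 9.90 and 9.32 to 10.23 (-0.09 ± 0.14), and its other probe set had the other sign (0.24 ± 0.13), with neither called. The mitosis mean was 7.57 to 7.69 at day 28 and 7.55 to 8.06 at day 21, with day 21 replicate 5 the highest. Outside these lists, the centromere protein gene Cenpn (-0.59 ± 0.13) and the exonuclease gene Exo1 (-0.42 ± 0.09) were called lower. Both are named after their values were seen. A p that misses the threshold does not show that the days are equal.

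A wider class of genes, those at least 2 log2 units higher in cultured BAL17 cells than in PBS brains, leaned lower at day 28. Of 585 such genes, 18 were called lower (3.08% against 0.682% of all genes) and 1 higher (0.171% against 0.878%). Of the 585, 472 (80.7%) had a difference below 0, against 52.2% of all genes, and the median of the 585 was -0.14. Among 1364 genes at least 2 units lower in the cultured cells than in PBS brains, 90 were called higher (6.60%) and 20 lower (1.47%). Their median was 0.13. The plot of the difference between days against the difference between cultured cells and PBS brains shows both. The mean of the 585 genes was 7.19 to 7.27 at day 28 and 7.27 to 7.60 at day 21, so the days just overlapped. The count of 18 became 5, 5, 8 and 9 without day 28 replicates 1, 3, 4 and 5, 7, 31, 10 and 7 without day 21 replicates 1, 2, 4 and 5, 5 with all 20 brain arrays in the fit, 9 above percentile 75 of intensity and 31 with array weights. Without day 21 replicate 5 the median was -0.08. The 90 genes called higher became 38 to 161 with 1 array left out, highest without day 21 replicate 2, and 38 to 50 without any other array except day 21 replicate 3 (88) and day 28 replicate 2 (64).

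**Figure D4:**
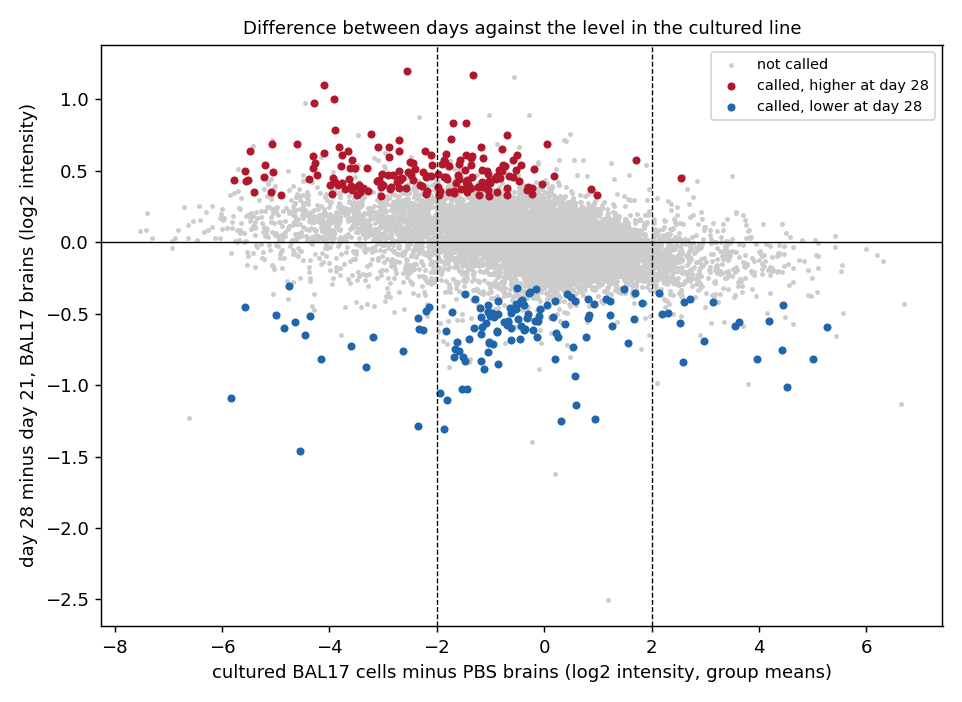
Difference between day 28 and day 21 in log2 intensity (y axis) against the difference between the means of cultured BAL17 cells and PBS brains (x axis) for 19938 genes, with genes called higher at day 28 in red and lower in blue and the class limits of 2 and -2 as dashed lines. Right of the limit 1 red and 18 blue points stand, and left of it 90 red and 20 blue points.

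The 18 genes of that class called lower are described after their values were seen, apart from those the naming rule gives. Il7r, the interleukin 7 receptor gene of developing lymphocytes, had 6.97, 7.12, 7.48, 7.58 and 7.46 in day 28 brains, against 8.50, 8.28, 7.71, 8.34 and 8.84 in day 21 brains, and means of 6.13 in PBS brains and 10.65 in cultured BAL17 cells. Its difference was -1.01 ± 0.17 (adjusted p = 0.00895), and no values overlapped. Myc, the proto-oncogene, had 9.86, 10.15, 10.16, 10.35 and 10.20 at day 28, against 10.91, 10.35, 10.53, 10.71 and 11.19 at day 21 (-0.59 ± 0.14, adjusted p = 0.0417). Day 28 replicate 4 and day 21 replicate 2 were both at 10.35, and the call was lost without any of 8 arrays (adjusted p up to 0.113). Of 19 MYC target and ribosome biogenesis genes, Myc and the nucleolar GTPase gene Gnl3 (-0.42 ± 0.10) were the 2 called lower, 0 were called higher, and the median was -0.15.

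Cxcr4, the receptor for the chemokine CXCL12, was at 8.97 to 9.28 at day 28 and 9.50 to 10.13 at day 21 (-0.69 ± 0.11, adjusted p = 0.00581). Ctse, the cathepsin E gene, was at 8.34 to 8.78 and 9.29 to 9.62 (-0.82 ± 0.09, adjusted p = 0.0016). Cd69, an early activation marker of lymphocytes, was at 4.93 to 5.50 and 5.64 to 6.57 (-0.81 ± 0.16, adjusted p = 0.0191). In each of these 3 genes the days were separate, and both days lay above the PBS mean. Of 15 apoptosis genes, 2 were called lower and 0 higher, the inflammatory caspase gene Casp4 (-0.55 ± 0.13) and the BH3-only gene Bcl2l11 (-0.50 ± 0.12). Both calls, and that of Gnl3, were lost without any of 7 or 8 arrays, with adjusted p of up to 0.101, 0.117 and 0.129. Of 10 germinal centre genes, 1 was called lower and 0 higher. Rgs13, a G protein regulator gene of germinal centre B cells, was at 8.36 to 8.84 at day 28 and 8.06 to 10.46 at day 21 and was not called (-0.43 ± 0.31, adjusted p = 0.663). The called gene was Serpina9, at 5.07 to 5.73 and 5.69 to 5.97, below its PBS mean of 6.09 in every brain of both days and lost without any of 6 arrays (adjusted p up to 0.0944).

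**Figure D5:**
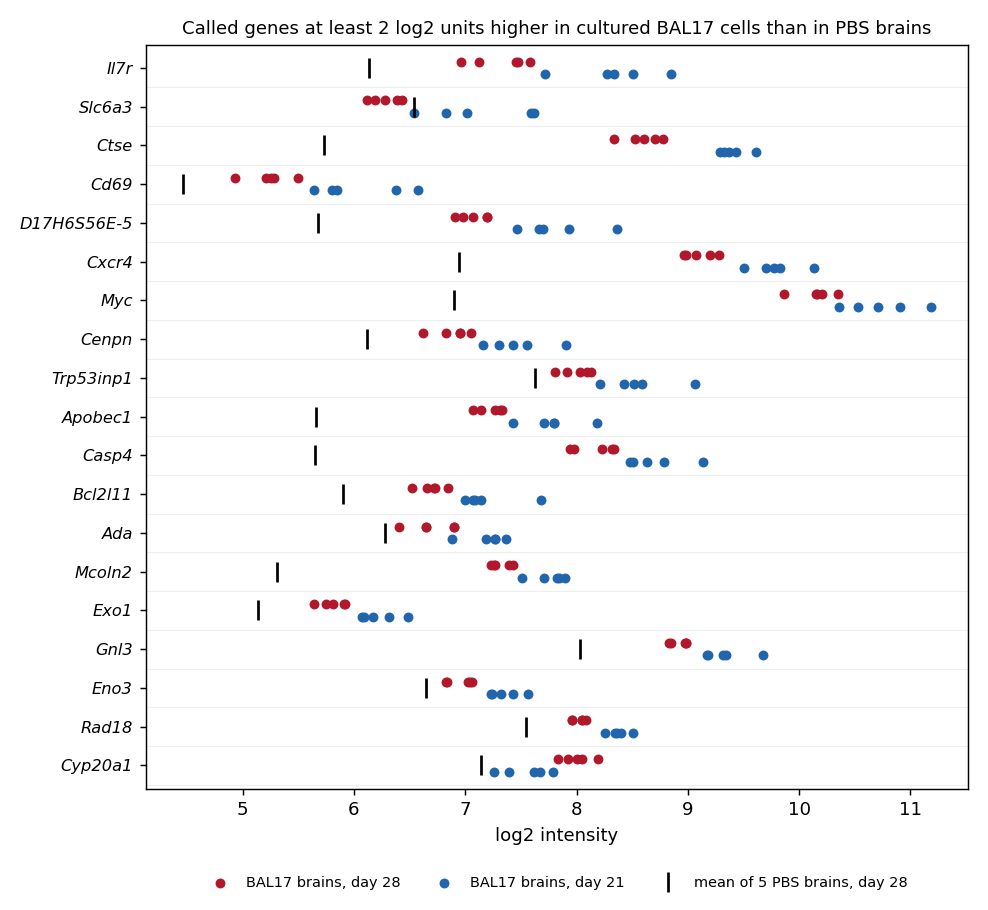
Log2 intensity (x axis) of the 19 called genes that are at least 2 units higher in cultured BAL17 cells than in PBS brains (rows), in each of 5 day 28 brains (red) and 5 day 21 brains (blue), with the mean of 5 PBS brains as a bar. In 18 genes, from Il7r at -1.01 to Rad18 at -0.36, the day 28 mean is lower, and in Cyp20a1 it is higher by 0.45.

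Ptpn22, a tyrosine phosphatase gene of lymphocytes, was among the 15 largest falls. It had 6.90, 7.36, 7.17, 7.75 and 7.61 in day 28 brains, against 8.78, 8.10, 8.16, 8.57 and 9.33 in day 21 brains (-1.23 ± 0.21, adjusted p = 0.00895). Means were 5.90 in PBS brains, 6.33 in BAL17VII brains and 6.84 in cultured BAL17 cells. Every BAL17 brain of both days lay above these means. Fkbp5, a cochaperone gene induced by glucocorticoids, was at 6.71 to 7.36 at day 28 and 7.78 to 8.27 at day 21 (-0.93 ± 0.13, adjusted p = 0.00297), against a PBS mean of 6.73. Cldn1, a tight junction gene, was at 5.27 to 6.04 and 6.39 to 7.24 (-1.03 ± 0.16, adjusted p = 0.0065).

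Immune lists gave few calls. Of 24 T and NK cell genes 2 were called lower (0.682% of all genes) and 0 higher (median -0.01). Both calls went to genes that PBS brains also held. Eomes, a T-box gene of cytotoxic cells and also of olfactory bulb neurons, was at 5.82 to 6.18 at day 28 and 6.35 to 7.19 at day 21, with a PBS mean of 6.89 (-0.68 ± 0.13, adjusted p = 0.0168). Cd4 was at 5.50 to 5.77 and 5.93 to 6.24, with a PBS mean of 6.13 (-0.42 ± 0.08, adjusted p = 0.0217), and its call was lost without any of 3 arrays (adjusted p up to 0.0616). The defining T cell genes Cd3e (-0.12 ± 0.11) and Cd8a (-0.01 ± 0.11) were not called. By limma, 0 genes were called of 20 monocyte and macrophage genes (median -0.02), 9 MHC class II genes (median -0.05), 13 interferon gamma response genes (median -0.21) and 19 type I interferon response genes (median -0.14). At an unadjusted p under 0.05 there were 3, 1, 2 and 3 of them in these lists, and 11 of 13 interferon gamma and 17 of 19 type I genes had a difference below 0.

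Cd74, the invariant chain of MHC class II, ran from 7.69 to 8.63 at day 28 and from 7.13 to 8.71 at day 21 (0.18 ± 0.24, adjusted p = 0.836). H2-Aa ran from 7.95 to 9.42 and from 8.02 to 9.77 (-0.09 ± 0.30), and Lyz2, the lysozyme gene of myeloid cells, from 8.35 to 9.95 and from 8.41 to 9.61 (0.28 ± 0.26). The spread among brains of a day was wider in these genes than the difference between days. Rtp4, an interferon-induced gene, was at 6.25 to 7.00 at day 28 and 6.87 to 8.31 at day 21, with day 21 replicate 2 highest (-0.71 ± 0.22, adjusted p = 0.153). Cd274, the PD-L1 gene, was at 7.03 to 7.55 and 7.58 to 8.21 without overlap and was not called (-0.49 ± 0.13, adjusted p = 0.0898).

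Set beside PBS brains, which both comparisons share, the called region genes stood differently on the 2 days. Tac1 differed from PBS by -1.37 ± 0.28 at day 28 and 0.09 ± 0.28 at day 21, and Penk by -0.98 ± 0.19 and 0.11 ± 0.19. Otx2 differed by -0.94 ± 0.17 at day 28 and -0.24 ± 0.17 at day 21. Neurod6 differed by -0.01 ± 0.14 at day 28 and -1.11 ± 0.14 at day 21, and Tbr1 by 0.14 ± 0.09 and -0.59 ± 0.09. In the striatal and choroid genes the day 28 brains were thus the group away from PBS, and in the cortical genes the day 21 brains were.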

How the data were processed

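RNA of brains and cultured cells was measured on an Affymetrix mouse gene array, 1 array per sample. The deposited values are linear intensities that the authors made with Affymetrix Expression Console and RMA, per the submitters' processing notes, which name no versions. RMA corrects background, normalizes quantiles and summarises probes, and it gives no detection call. The number of arrays limits the precision. Of 35556 probe sets, 21789 carried 1 symbol in the platform annotation, 1621 several and 12146 none, and only the first kind was used.

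From these intensities log2 was taken, and a gene's brightest probe set on average over these 10 arrays was kept, which gave 19938 genes without a filter. Day 28 and day 21 brains were compared with limma 3.58.1 in R 4.3.3 (lmFit and eBayes, 10 arrays, two-sided, Benjamini-Hochberg over all genes). BAL17VII brains were kept out of this fit, and their list means had the largest SD of the 4 brain groups in 31 of 53 lists. Each day was set beside PBS brains in a fit of 15 arrays. Cultured cells and PBS brains served only to class genes at a difference of 2, and whether lines and brains were normalized together is not given in the sources used here. Genes named are the 15 largest called rises and 15 largest called falls with complete separation of the days, the 3 with the smallest adjusted p of each of 24 lists, and a short set of marker genes. Any other gene is marked as named after its values were seen. The comparison, its members and the lists were chosen with earlier results of these data known. Of 808 list entries, 729 were measured. No 2 arrays held identical values. Tested on simulated data with 200 of 19938 genes changed, the fit recovered 63% of changes of 0.5 and 99% of changes of 1, and 7.95% of its calls were false. The simulation drew each gene independently, while genes of the real arrays can move together by brain, so these rates may not hold for the real arrays. Tables were handled in Python 3.11.15 with pandas 2.3.3 and drawn with matplotlib 3.10.9. Alternatives covered the arrays in the fit, filters, probe sets, normalization, moderation, weights, a replicate block and single arrays left out.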

Additional observations from a re-analysis of the deposited data

Results flagged for a closer look

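In 13 of 282 groups of 5 brains (4.61%), 1 brain stood apart from the other 4 by Dixon's test, where chance gives about 1 in 20. At day 28, replicate 3 was lowest in Cadps2 at 9.41 (median 9.59), replicate 2 was lowest in Mab21l1 at 8.05 (median 8.13) and highest in Car8 at 11.27 (median 11.06), replicate 4 was highest in Grin2a at 9.85 (median 9.56), and replicate 5 was lowest in H2-Ob at 6.56 (median 6.74). At day 21, replicate 2 was highest in Drd2 at 9.18 (median 8.84), in Rtp4 at 8.31 (median 7.12) and in Aqp4 at 9.17 (median 8.51). Replicate 4 of day 21 was highest in Slc4a5 at 6.77 (median 6.50), and replicate 5 of day 21 in Bcl2l11 at 7.68 (median 7.09). Among the list means, day 28 replicate 1 was highest for mitosis at 7.69 (median 7.60), day 21 replicate 2 for striatum at 8.49 (median 8.26), and day 21 replicate 3 for germinal centre at 7.67 (median 7.11).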

How the results depend on the processing

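None of the 59 named calls changed direction under any of 24 alternatives, and 21 of them held in all where the gene was tested. In several alternatives, such as more arrays in the fit or another moderation, a difference cannot change, so its direction was not at stake there. Of 117 named differences, 6 changed sign in some alternative, those of Cd8a, Cldn5, Gfap, H2-Aa, Mbp and Top2a, none of which was called. The count of 311 called genes became 122 with all 20 brain arrays in the fit (78 higher, 44 lower), 201 above percentile 75 of intensity (148 higher, 53 lower) and 158 when a change of at least 0.5 was also asked (66 higher, 92 lower). With the PBS brains in the fit 268 genes were called, 83 of them lower, and with array weights 450, of which 271 higher. With 1 array left out the count ran from 142 to 482, with 73 to 308 higher and 62 to 174 lower. Striatal genes called lower, 13 of 14, became 7 with the PBS brains, 5 with all brain arrays, 8 above percentile 75, and 10 to 13 with 1 array left out. The smaller counts under a filter or with an array left out come with fewer genes or arrays tested, and the cause of the others was not tested. The labels do not state whether replicate numbers pair these brains. Deviations of same-numbered brains correlated at -0.319 to 0.286, which with so few brains per day cannot exclude a pairing. A replicate block gave 272 called genes, 234 of them among the 311. The depth behind a value is not known for arrays, and RMA gives no detection call, so signal over background was not tested.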

Other observations

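The genes below were named after their values were seen and lie outside the groups described above. Among called genes, Sgk1, a kinase gene induced by glucocorticoids, was at 7.45 to 8.26 in day 28 brains and 8.51 to 8.80 in day 21 brains (-0.62 ± 0.14, adjusted p = 0.0369). Pdk4, a kinase gene that restrains the use of glucose, was at 7.09 to 8.02 at day 28 and 8.22 to 8.90 at day 21 (-0.76 ± 0.17, adjusted p = 0.0384). In both genes all day 28 brains lay below all day 21 brains, as they did in Fkbp5.

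Of 13 GABA and interneuron genes, 1 was called lower and 0 higher, 9 had a difference above 0, and the median was 0.07. The called gene was Gad2, an enzyme gene of GABA synthesis, at 9.61 to 9.86 at day 28 and 10.02 to 10.11 at day 21 (-0.31 ± 0.07, adjusted p = 0.0465). Slc17a7, the vesicular glutamate transporter gene of cortex, was at 9.31 to 9.48 and 8.86 to 9.24 (0.39 ± 0.08, adjusted p = 0.0272). The adenylyl cyclase gene Adcy1 was at 8.87 to 9.06 at day 28 and 8.03 to 8.69 at day 21 (0.64 ± 0.11, adjusted p = 0.00895), opposite to Adcy5. The days were separate in each of these 3 genes.

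The opioid receptor gene Oprk1 was at 4.83 to 5.58 at day 28 and 5.82 to 6.21 at day 21 (-0.83 ± 0.12, adjusted p = 0.00396), and the serotonin receptor gene Htr2c at 7.42 to 7.87 and 8.01 to 8.47 (-0.66 ± 0.11, adjusted p = 0.00902). Of 13 matrix and remodelling genes, 2 were called lower and 0 higher, 10 had a difference below 0, and the median was -0.13. Sparc, a matrix protein gene, was at 11.63 to 12.13 at day 28 and 12.18 to 12.59 at day 21 (-0.45 ± 0.11, adjusted p = 0.0452). Of 15 endothelial and blood-brain barrier genes, 1 was called lower and 0 higher, 11 had a difference above 0, and the median was 0.07. The called gene, Mfsd2a, a lipid transporter gene of brain endothelium, was at 7.75 to 8.17 and 8.21 to 8.72 (-0.52 ± 0.11, adjusted p = 0.0256). Every day 28 brain was below every day 21 brain in these 4 genes.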
